A study of Mus musculus and synthetic construct with 15 samples.

Results

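The regions described here are the ventricular multi-transcription-factor regions with p300, which carry the prefix vMTF+p300 and no other tag in the identifiers of a reporter pool of mouse heart enhancer candidates. They are all the regions with that prefix alone, 509 of the 3820 regions of the pool. This class was chosen with earlier results of these data known. Each is a 400 bp stretch of the mouse genome (build mm10 per the submitters' processing notes). The pool was packaged in adeno-associated virus (AAV9), given to wild-type pups on postnatal day 0 and read out on postnatal day 7 in a massively parallel reporter assay, in which the RNA made from each candidate is counted beside its DNA. The 15 libraries were 5 of reporter RNA from ventricle, 5 of reporter RNA from atrium and 5 of DNA of the AAV pool. All 10 RNA libraries came from wild-type animals that received this pool, and their labels give the cell type as cardiomyocytes. Sex, strain, pooling of animals and the promoter that drives the reporter are not given in the sources used here. The counts are of a reporter and not of transcripts of the tissue, so markers of the labelled cell type could not be read from them.

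An enhancer is a DNA element that raises transcription of a gene at a distance when transcription factors occupy it. The factor p300 is a histone acetyltransferase that such factors recruit, and its presence on chromatin is widely used to find active enhancers in heart. Atrial and ventricular cardiomyocytes share most cardiac transcription factors, and differ in contractile proteins, ion channels and energy use. In a reporter assay an element is taken out of its chromosomal setting, so its activity is that of the isolated sequence.

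The 509 regions lay on 19 chromosomes and came from 436 elements, since some elements were cut into adjacent 400 bp pieces. Their midpoint was inside a protein-coding gene for 260, outside but within 100 kb of one for 175, and farther from any for 74. They were assigned to 339 nearest genes, of which 12 had 3 or more regions. A nearest gene is named below to say where a region is, and no link between a region and that gene was measured. A further column of the deposited table sorts regions by occupancy classes that the labels do not spell out. It gives MTF or P300 for 352 of these regions, spMTF or spP300 for 127, TF3-4 for 18 and TF1-2 for 12.

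Sequence was at hand only where a region overlapped a promoter in RefSeq (GRCm38.p6, the same build as mm10), taken as 250 bases before to 50 after the start of a gene. Of these regions 8 did, and the 4 that were well enough represented in DNA to be tested are printed 5′ to 3′ on the strand of the gene, because they are the tested promoters of this class. They are of 1 protein-coding gene and 3 long non-coding RNAs. Capitals mark a match to a searched word.
Tspan9 promoter, chr6:128035013-128035312, minus strand: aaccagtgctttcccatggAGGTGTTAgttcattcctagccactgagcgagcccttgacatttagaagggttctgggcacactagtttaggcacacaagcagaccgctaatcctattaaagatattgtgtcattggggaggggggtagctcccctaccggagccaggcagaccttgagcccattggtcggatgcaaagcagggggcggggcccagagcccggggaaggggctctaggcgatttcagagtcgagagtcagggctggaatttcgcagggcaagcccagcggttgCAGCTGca
E130101E03Rik promoter, chr9:24974154-24974257, plus strand, the 104 bases inside the region: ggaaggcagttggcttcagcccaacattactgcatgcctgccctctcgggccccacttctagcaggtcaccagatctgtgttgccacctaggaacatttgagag
Gm40649 promoter, chr10:53180915-53181214, plus strand: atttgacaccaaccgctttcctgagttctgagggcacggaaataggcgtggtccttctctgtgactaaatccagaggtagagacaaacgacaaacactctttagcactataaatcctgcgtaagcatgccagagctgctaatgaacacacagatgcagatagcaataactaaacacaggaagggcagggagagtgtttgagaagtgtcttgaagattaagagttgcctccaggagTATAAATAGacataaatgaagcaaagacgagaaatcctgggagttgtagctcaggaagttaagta
Gm41414 promoter, chr16:5431144-5431443, plus strand: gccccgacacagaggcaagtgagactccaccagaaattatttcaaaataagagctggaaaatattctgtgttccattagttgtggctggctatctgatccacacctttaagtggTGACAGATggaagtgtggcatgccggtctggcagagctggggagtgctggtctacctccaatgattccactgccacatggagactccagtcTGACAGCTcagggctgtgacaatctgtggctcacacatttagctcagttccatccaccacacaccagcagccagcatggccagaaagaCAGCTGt
The words searched on both strands, with the share of 32851 RefSeq promoters of 300 bases that hold each, were AGATAA for GATA factors (11.2%), CTATTTATA (0.429%), CTAAAAATA (0.517%) and CTATTTTTA (0.493%) for MEF2, AGGTGTGA (1.28%) and AGGTGTTA (0.426%) for T-box factors, TCAAGTG for NKX2 factors (3.06%), ACATTCCA for TEAD factors (1.35%), TCAAGGTCA for oestrogen-related receptors (0.423%), TGACAGNT for MEIS factors (5.02%), CAGCTG for E-box factors (16.3%) and the serum response factor element (1.63%). Tspan9, which encodes a tetraspanin of the cell membrane, held 1 match to AGGTGTTA and 1 to CAGCTG. The Gm40649 piece held 1 match to CTATTTATA on the opposite strand, and the Gm41414 piece held 2 matches to TGACAGNT and 1 to CAGCTG. The E130101E03Rik piece held none of these words. It has only 104 bases, and over that stretch fewer promoters hold each word, such as 3.18% for AGATAA and 6.82% for CAGCTG. A match is only a description of the letters.

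Values below are counts per 1000000 counts of tested regions (CPM) after scaling with the trimmed mean of M-values. Total counts ran from 1271527 to 3781726 in ventricular RNA, 877773 to 2369985 in atrial RNA and 2312820 to 2958271 in DNA, with replicate 1 the shallowest of both RNA groups. A region was tested when its DNA libraries averaged at least 10 counts, which 349 of the 509 regions did, with a median of 214 counts. Of the other 160, 64 had no count in any DNA library and 96 had some. Replicate 1 of both chambers stood apart from replicates 2 to 5. In it, 78 of the 509 regions were at 0 in ventricle and 83 in atrium, against 5 to 9 in the other ventricular libraries, 7 to 12 in the other atrial libraries and 83 to 96 in the DNA libraries. Of the 349 tested regions, 10 had a ventricular and 10 an atrial value in replicate 1 that was more than 10-fold below the lowest of replicates 2 to 5, and 0 were as far above the highest. Results are therefore also given without replicate 1. Nothing in the labels says whether libraries of a group came from separate animals, so the p-values measure the spread between these libraries, which may be technical.

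Reporter RNA of the vMTF+p300 regions was more often higher in ventricle than in atrium. By edgeR's quasi-likelihood test, with Benjamini-Hochberg adjustment over all 2601 tested regions of the pool, 105 of 349 (30.1%) were higher in ventricle and 41 (11.7%) were higher in atrium, where the background over all tested regions was 15.1% and 15.8% (30.9% in either direction). The remaining 203 were not called. The log2 fold changes of ventricle over atrium ran from -2.27 to 1.63 with a median of 0.157 and quartiles of -0.222 and 0.506. Over all tested regions the median was -0.026. Changes of at least 2-fold were called for 21 regions towards ventricle and 14 towards atrium, where the background was 3.04% and 4.88%. The 5 ventricular values all lay above the 5 atrial ones for 96 regions and all below them for 29, where the background was 13% and 10%. Values are shares of each library, so a difference in the total amount of reporter RNA between chambers is scaled out. In bulk tissue, fewer cells of a type that uses a region and less RNA of it per cell cannot be told apart.

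The size of this lean depended on what the libraries were scaled to. The 469 tested regions that the deposited table puts in the group Neg had a median of 0.132 themselves, with 57 higher in ventricle and 15 higher in atrium. With the libraries scaled on those regions, 67 vMTF+p300 regions were higher in ventricle and 48 higher in atrium, where the background became 9.11% and 21.6%, and their median became 0.004 while that of all tested regions moved by -0.152. Without replicate 1 the counts were 89 and 39, where the background was 12.6% and 15%, and the median was 0.127. Of the 128 regions called without replicate 1, 126 had the same sign in replicate 1 alone. Among regions called with all libraries, 102 of the 105 and 37 of the 41 had that direction in all 5 pairs of libraries matched by number alone. The calls used these same libraries, so this agreement follows largely from the calls and adds no support.

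**Figure D1:**
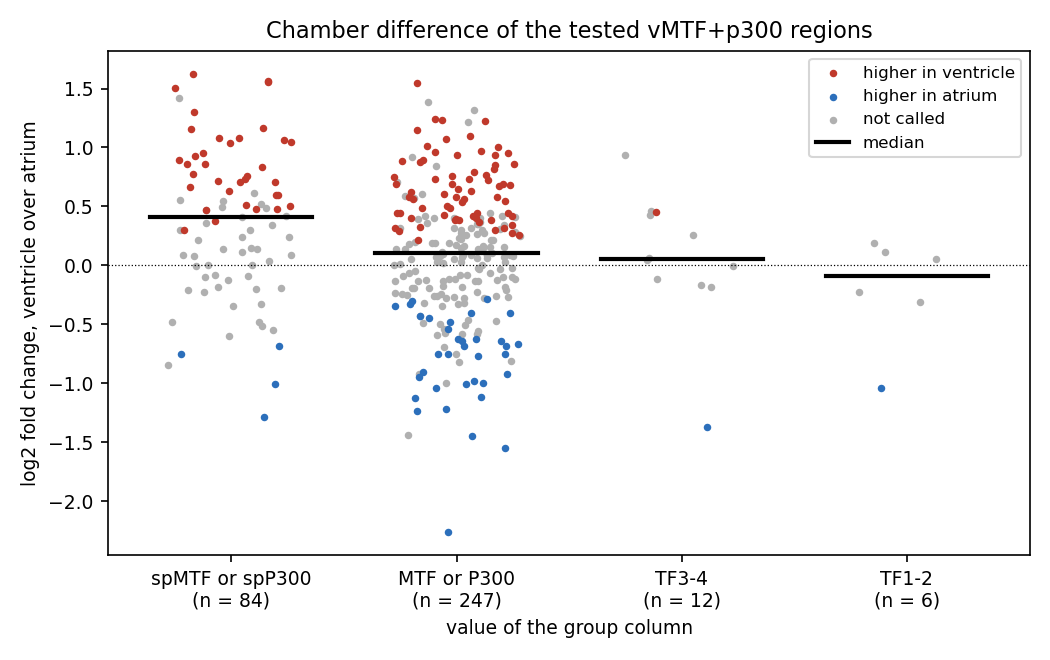
Log2 fold change of ventricular over atrial reporter RNA for each tested vMTF+p300 region (points, y axis), by value of the group column of the deposited table (x axis), with colours for the call and a black bar at the median. The spMTF or spP300 regions have a median of 0.412, the MTF or P300 regions 0.108, and the 12 TF3-4 and 6 TF1-2 regions lie around 0 with 1 call towards ventricle and 2 towards atrium.

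Within the class, the lean towards ventricle was larger in the spMTF or spP300 regions. Of 84 tested, 35 (41.7%) were higher in ventricle and 4 (4.76%) higher in atrium, with a median of 0.412. Of the 247 tested MTF or P300 regions, 69 (27.9%) were higher in ventricle and 35 (14.2%) higher in atrium, with a median of 0.108. Over the whole pool, the 520 tested spMTF or spP300 regions had 19.6% and 16.2% with a median of -0.015. The 1170 tested MTF or P300 regions of the pool had 16.2% and 20.3% with a median of -0.08. With scaling on the Neg regions, the vMTF+p300 regions gave 25 and 5 (median 0.261) against 42 and 41 (median -0.04). Without replicate 1 they gave 32 and 3 (median 0.391) against 57 and 34 (median 0.08). The same order held in each range of DNA depth. Among regions with 10 to 100, 100 to 300 and at least 300 mean DNA counts, the spMTF or spP300 medians were 0.491, 0.476 and 0.214, and those of MTF or P300 were 0.165, 0.184 and 0.045. These differences between values of the column are descriptions and were not tested. The plot of the chamber difference by group column shows the spread behind each median.

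Values of the classes with like prefixes are given for comparison and their differences were not tested. The 218 tested aMTF+p300 regions, the atrial counterpart, had 22 higher in ventricle and 52 higher in atrium, with a median of -0.198. The 123 tested vMTF-p300 regions, the ventricular class without p300, had 33 and 18 with a median of 0.184. The spMTF or spP300 regions within vMTF-p300 had 14 and 1 of 26, and those within aMTF+p300 had 4 and 6 of 25. By place, of the 186 tested vMTF+p300 regions inside a gene, 62 were higher in ventricle and 21 higher in atrium. Outside but within 100 kb these were 27 and 15 of 113, and farther away 16 and 5 of 50. The shares of all tested vMTF+p300 regions were 30.1% and 11.7%. No shares by place were computed over all tested regions of the pool, so these counts are not shown to be particular to a place.

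The named regions with the largest lean towards ventricle ranged from weak to strong in RNA. The region 14362 bp from Coq8a (chr1:180210183-180210582), a kinase-like protein needed to make coenzyme Q in mitochondria, had 2373, 1893, 2096, 1981 and 2185 CPM in ventricular RNA, against 738, 662, 654, 758 and 725 CPM in atrial RNA. Its 5 DNA libraries held 80.6 to 111 CPM. All ventricular values were above all atrial values, and both chambers were far above DNA. The log2 fold change was 1.56 ± 0.08 (SE, n = 5 each, edgeR adjusted p = 2.17e-09). The second Coq8a region, inside the gene at chr1:180185908-180186307, had a difference of 0.11 ± 0.27 and was lower in RNA than in DNA in both chambers.

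A region inside Med26, a subunit of the Mediator complex that links activators to RNA polymerase II, had the largest fitted change (chr8:72499591-72499990). It gave 494, 384, 355, 345 and 286 CPM in ventricle, against 73.8, 124, 146, 113 and 135 CPM in atrium and 207 to 241 CPM in DNA. Ventricular RNA was therefore above the DNA level and atrial RNA below it. The log2 fold change of ventricle over atrium was 1.63 ± 0.19 (edgeR adjusted p = 8.96e-06), and 1.37 without replicate 1. The log2 RNA over DNA ratio was 0.76 in ventricle and -0.99 in atrium.

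Near Prss54, a protease-family gene, the region chr8:95596886-95597285 had 1566, 1654, 1486, 1439 and 1276 CPM in ventricle, against 432, 582, 461, 495 and 544 CPM in atrium. The groups did not overlap, and the log2 fold change was 1.54 ± 0.10. The region 44045 bp from Arhgef37 (chr18:61447413-61447812), a guanine nucleotide exchange factor of small GTPases, had 1281 to 1450 CPM in ventricle, against 510 to 661 CPM in atrium (log2 fold change 1.14 ± 0.09). A region inside Gipc2, a PDZ-domain adaptor, had 175 to 223 CPM in ventricle, against 70.2 to 98.7 CPM in atrium (chr3:152133554-152133953, log2 fold change 1.23 ± 0.17). Inside Pard3, a scaffold of cell polarity, the region chr8:127107920-127108319 was weak in both chambers, with 31.3 ± 5.80 CPM in ventricle, against 13.9 ± 2.31 CPM in atrium (SD, n = 5 each) and 22.2 to 29.6 CPM in DNA. Its chamber difference was 1.16 ± 0.32. Against DNA, ventricular RNA was not called (log2 0.26 ± 0.20) and atrial RNA was below (log2 -1.01 ± 0.25), whereas with library totals ventricular RNA was called above (0.632) and the atrial call was lost (-0.537).

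Of the 12 regions named for the largest lean to ventricle, 5 had no protein-coding gene within 100 kb. The strongest in RNA, chr10:37617683-37618082, had 622 to 763 CPM in ventricle, against 263 to 327 CPM in atrium and 20.2 to 29.9 CPM in DNA. Its log2 fold change between chambers was 1.24 ± 0.10, and its RNA over DNA ratio on the log2 scale was 4.92 in ventricle and 3.55 in atrium. The others, on chromosomes 2, 13 and 14, had differences of at least 1.09. The region of the 12 not yet given lay inside Cdsn (chr17:35549182-35549581), which encodes an adhesion protein of skin. It rested on 27.6 to 67.7 CPM in ventricle, against 14.6 to 27.4 CPM in atrium, so its groups nearly touched.

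Fewer regions of this ventricular class were higher in atrium, and some of them were large. A region inside Kcnd2, a potassium channel of the transient outward current, had 78.5, 90.3, 73.7, 80.7 and 87.3 CPM in ventricle, against 181, 202, 246, 259 and 217 CPM in atrium (chr6:21267836-21268235). DNA was at 4.15 to 5.84 CPM, so RNA was above DNA in both chambers. The ventricular and atrial values did not overlap and the log2 fold change was -1.45 ± 0.16 (edgeR adjusted p = 4.96e-06). Regions of the group Neg with as little DNA could also have high ratios. The Kcnd2 region had a mean of 11.4 DNA counts and a log2 ratio to DNA of 3.93 in ventricle. A Neg region with 10.6 DNA counts had 4.71. Whether the ventricular RNA reflects activity beyond that of such regions was not tested.

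The lowest fitted value belonged to a region inside Grk5 (chr19:60939780-60940179), a kinase that turns off G-protein-coupled receptors. It had 10.9, 22.8, 21.1, 25.1 and 13.6 CPM in ventricle, against 170, 45.2, 150, 27.1 and 62.3 CPM in atrium and 9.35 to 17.5 CPM in DNA. The groups did not overlap, but the atrial values were spread widely. The log2 fold change was -2.27 ± 0.47 (edgeR adjusted p = 0.00207), and -1.82 without replicate 1. Ventricular RNA of this region did not pass the test against DNA (log2 0.46 ± 0.29) except with library totals (0.825), while atrial RNA was above DNA (log2 2.61 ± 0.48).

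A region 90062 bp from Pcgf5, a Polycomb subunit, was higher in atrium with a log2 fold change of -1.12 ± 0.11. Near Pecr, a peroxisomal reductase of fatty acid elongation, and Gclc, the catalytic subunit of the first enzyme of glutathione synthesis, the values were -1.37 ± 0.14 and -1.24 ± 0.24. The Pecr region (chr1:72254616-72255015) had 459 to 646 CPM in ventricle, 1032 to 1845 CPM in atrium and 1170 to 1471 CPM in DNA, so ventricular RNA was below the DNA level. Its atrial ratio to DNA was not called (log2 0.07 ± 0.14), but was called above DNA with library totals (0.549), with scaling on the Neg regions (0.469) and with a DNA minimum of 100 counts (0.487). The Gclc region was below DNA in both, with a log2 ratio of -2.07 in ventricle and -0.94 in atrium.

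**Figure D2:**
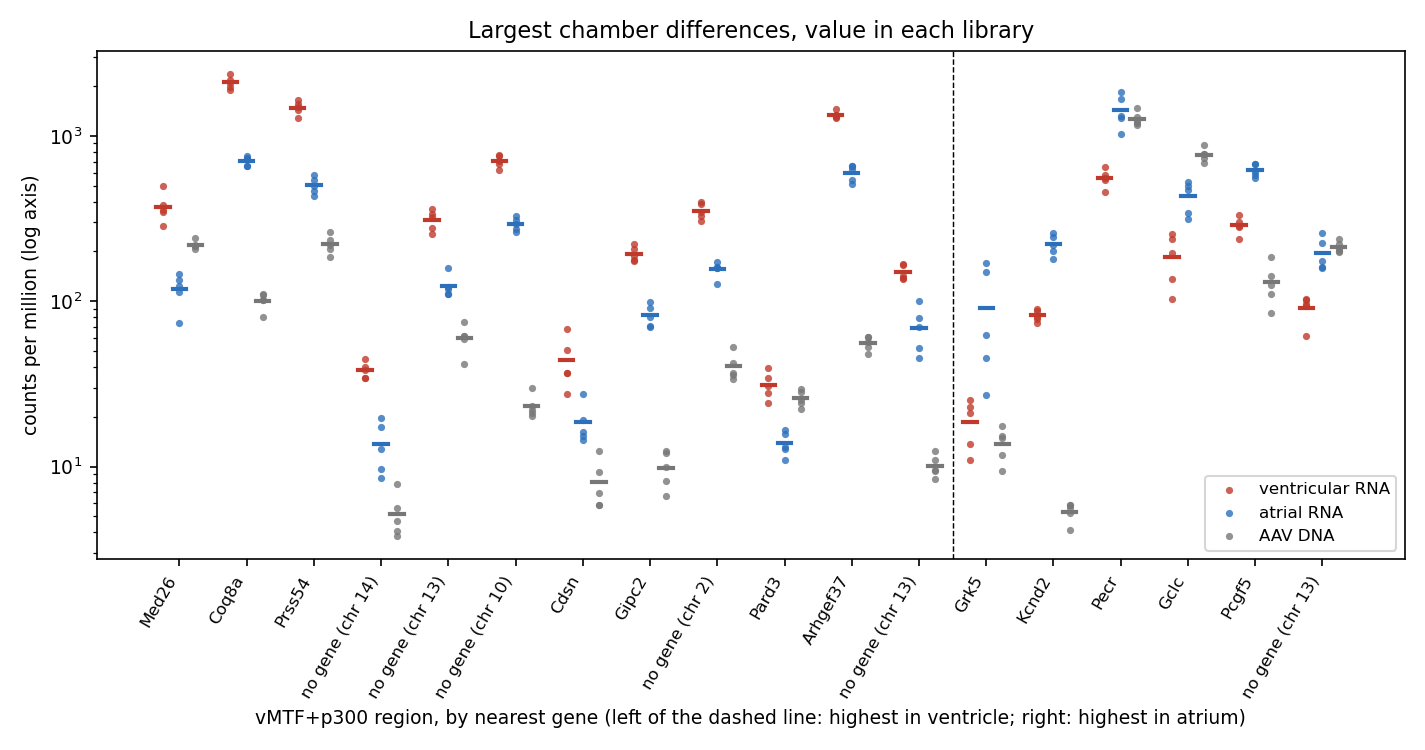
CPM (log axis) in each of the 5 ventricular RNA, 5 atrial RNA and 5 DNA libraries (points, with bars at the mean) for the 12 vMTF+p300 regions with the largest lean to ventricle (left of the dashed line) and 6 of the 8 with the largest lean to atrium (right), named by nearest gene. Ventricular and atrial points do not overlap in any of the 18, as the rule for naming them required, and the Grk5 region has the widest atrial spread, 27.1 to 170 CPM.

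Of the 10 regions near genes of energy metabolism, 8 were tested, 4 were higher in ventricle and 0 higher in atrium, with a median of 0.421. Of all tested regions 15.1% and 15.8% were called, and of the vMTF+p300 regions 30.1% and 11.7%. The lists were not tested as sets, and their counts are small. Besides Coq8a these were Insr, Idh2 and Lpl. The region inside Insr, the insulin receptor, had 2366, 2292, 2464, 2381 and 2628 CPM in ventricle, against 921, 1134, 1255, 1385 and 1232 CPM in atrium (chr8:3187531-3187930). All ventricular values were above all atrial values and the log2 fold change was 1.02 ± 0.10. The region near Idh2, a mitochondrial isocitrate dehydrogenase, had 1451 to 1864 CPM in ventricle, against 811 to 1372 CPM in atrium and 1268 to 1680 CPM in DNA (chr7:80130434-80130833, log2 fold change 0.79 ± 0.13). Lpl, the lipase that frees fatty acids from lipoproteins, had a region with 0.63 ± 0.22, a call lost without replicate 1 (0.556) and when any of 5 single libraries was left out (0.485 to 0.624). The other 4, near Idh2, Coq8a and Irs1, lay between -0.13 and 0.21 and were not called.

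Regions near cardiac transcription factors moved both ways. Of 16 on the list, 13 were tested, with 4 (30.8%) higher in ventricle, 1 (7.69%) higher in atrium and a median of 0.062. The background was 15.1% and 15.8%, and the shares of all vMTF+p300 regions were 30.1% and 11.7%. The region inside Esrrb, an oestrogen-related receptor, had 1414, 1440, 1492, 1517 and 1467 CPM in ventricle, against 519, 667, 717, 768 and 781 CPM in atrium (chr12:86498831-86499230). The groups were far apart, with a log2 fold change of 1.07 ± 0.10. Inside Esrrg, its relative that drives oxidative metabolism in heart, the value was 0.69 ± 0.14, with 218 to 276 CPM in ventricle, against 135 to 176 CPM in atrium. A region 59531 bp from Gata6, a zinc-finger factor of heart development, was at 0.41 ± 0.11.

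Myocd, the coactivator of serum response factor, had 3 regions with different values. The one inside the gene was slightly higher in ventricle (0.29 ± 0.10), one 50892 bp away was not called (0.18 ± 0.29), and one 96135 bp away was higher in atrium. That last one had 79.2 to 116 CPM in ventricle, against 143 to 235 CPM in atrium (chr11:65365925-65366324, edgeR adjusted p = 0.000617). Both tested regions near Mef2a, a MADS-box factor of muscle genes, had negative values that did not pass the test (-0.75 ± 0.35 and -0.47 ± 0.53).

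Sarcomere and Z-disc genes had 9 regions, of which 7 were tested. Of these, 3 (42.9%) were higher in ventricle and 1 (14.3%) higher in atrium (median 0.272), where the background was 15.1% and 15.8%. The region inside Ldb3, a Z-disc protein that binds alpha-actinin, had 1253 to 1598 CPM in ventricle, against 900 to 987 CPM in atrium, with no overlap (0.54 ± 0.08). Trim55, a ubiquitin ligase of the sarcomere, had 0.42 ± 0.11. Actn2, the alpha-actinin of the Z disc, had 0.27 ± 0.09, a call lost without replicate 1 (0.213). It was also lost without ventricular replicate 1 (0.220), atrial replicate 2 (0.240) or atrial replicate 5 (0.249). The region near Fhl2, a LIM-domain protein of the sarcomere, was higher in atrium (-0.48 ± 0.10), with 527 to 719 CPM in ventricle, against 782 to 919 CPM in atrium.

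Ion channel and calcium-handling genes had 6 tested regions of 9, with 2 higher in ventricle and 2 higher in atrium. That is 33.3% each way, where the background was 15.1% and 15.8%. The region inside Camk2d, the main calcium/calmodulin-dependent kinase of heart, had 2467, 2317, 2142, 2302 and 2152 CPM in ventricle, against 1249, 1233, 1466, 1235 and 1042 CPM in atrium (chr3:126746335-126746734). The groups did not overlap, with a log2 fold change of 0.85 ± 0.09. The region inside Cacna1c, the pore of the L-type calcium channel, was at 0.58 ± 0.15, with 504 to 755 CPM in ventricle, against 288 to 536 CPM in atrium. These ranges overlap, and the call was lost with no DNA filter (0.520). The region inside Kcnd2 was on the atrial side as given above. Of the 15 tested regions near genes of growth, adhesion and signalling (21 on the list), 1 (6.67%) was higher in ventricle and 2 (13.3%) higher in atrium. They were near Pkp2, a desmosomal plaque protein (0.38 ± 0.10), Grk5, and Akap13, an anchoring protein of protein kinase A (-1.04 ± 0.19). With scaling on the Neg regions, the calls of Trim55, Actn2, Gata6, Lpl and Pkp2 were lost, at log2 values of 0.125 to 0.475. The list of ventricular chamber genes had 3 tested regions, all named above or below (Cacna1c, Rbm20 and Fhl2). The only region on the atrial list, near the T-box repressor gene Tbx3, was not called (0.06 ± 0.14).

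**Figure D3:**
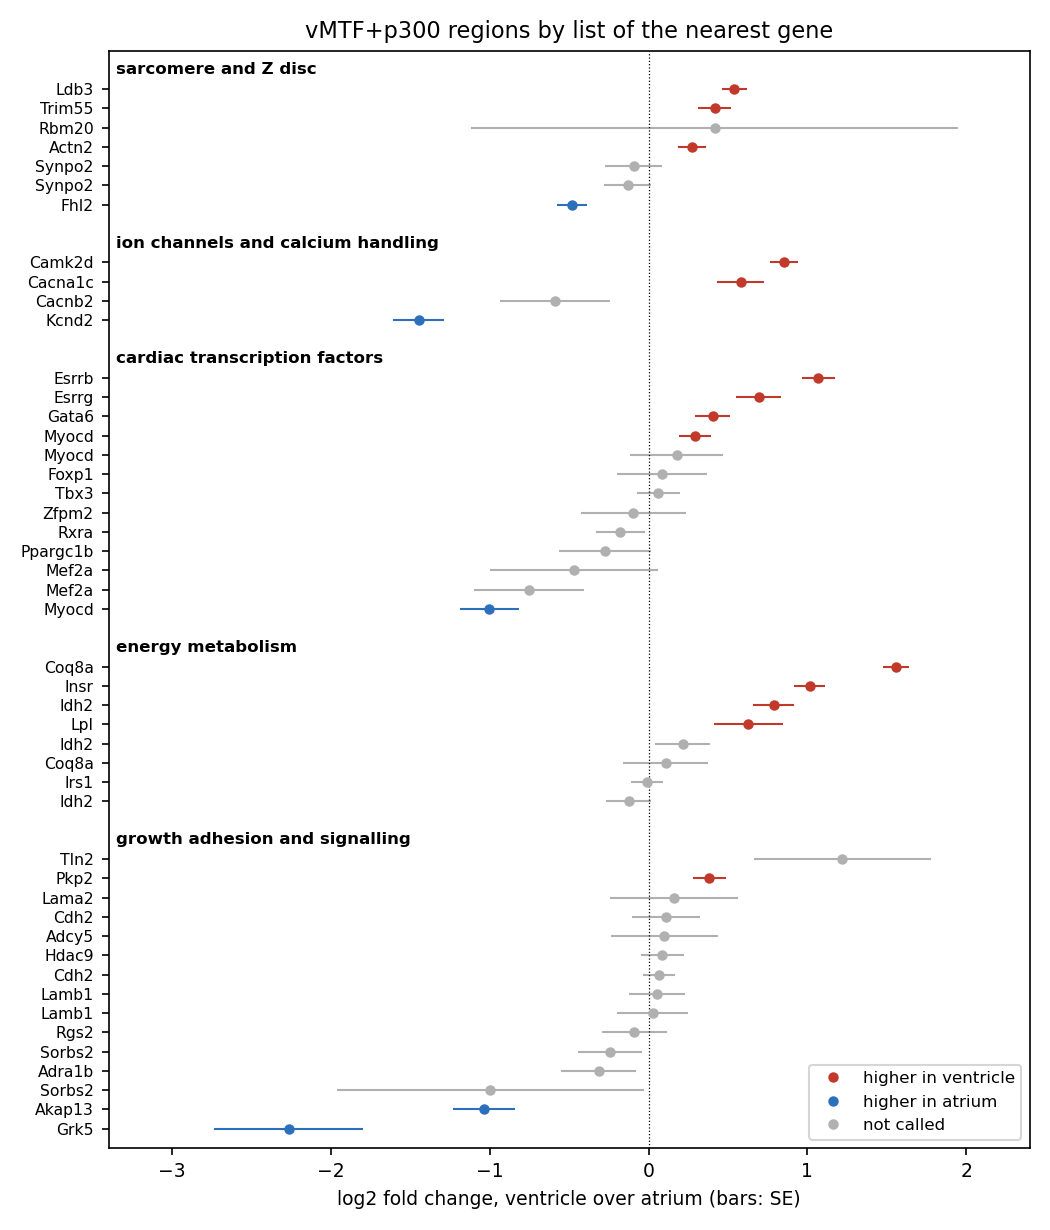
Log2 fold change of ventricle over atrium (x axis, bars are the SE) for the tested vMTF+p300 regions whose nearest gene is on 5 of the lists, apart from those not reported, named by that gene and coloured by call. Energy metabolism has 4 regions called higher in ventricle and 0 called higher in atrium, and the Rbm20 region has an SE of 1.53.

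Against the DNA of the pool, reporter RNA of the class was mostly higher. In ventricle, 226 of the 349 tested regions (64.8%) were above DNA and 77 (22.1%) below, where the background was 43.4% and 37.8%, and the median log2 ratio was 0.842 against 0.128 over all tested regions (81.2% of all were called in either direction). In atrium, 192 (55.0%) were above and 87 (24.9%) below, where the background was 38.4% and 36.3%, with a median of 0.714 against 0.038 (74.7% of all in either direction). At least 2-fold above DNA were 167 in ventricle (background 31.6%) and 147 in atrium (background 28.1%), and 39 in each chamber were at least 2-fold below (background 21.5% and 20.9%). The 5 RNA values all lay above the 5 DNA values for 191 regions in ventricle (background 36.1%) and 169 in atrium (background 31.8%), and all below for 69 (background 33.8%) and 68 (background 28.6%). Both comparisons use the same DNA libraries, so they are given side by side only. Ratios are relative to the bulk of each library. They are also relative to the pool sequenced as DNA, and replicates 2 to 5 held RNA of regions absent from it, as given below, so whether that DNA matches what those animals received was not tested. With scaling on library totals the medians were 1.211 in ventricle and 1.186 in atrium, while those of all tested regions moved by 0.372 and 0.477. The calls in atrium were then 229 above and 49 below DNA, and 223 above and 56 below with scaling on the Neg regions.

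RNA over DNA moved with the amount of DNA, in this class and in the Neg regions. For regions with 10 to 100, 100 to 300 and at least 300 mean DNA counts, the vMTF+p300 medians were 1.90, 1.19 and 0.12 in ventricle, and those of Neg were 1.05, -0.08 and -0.77. In atrium they were 1.67, 0.95 and -0.20 for vMTF+p300 and 0.77, -0.33 and -0.94 for Neg. The part of DNA depth in these ratios was not tested further. In each range the vMTF+p300 median lay above that of Neg. Above the 95th percentile of Neg in the same range were 92 of 349 vMTF+p300 regions (26.4%) in ventricle and 111 (31.8%) in atrium. This count was not made for other classes, so these shares are not shown to be particular to this one. Over all DNA ranges, the vMTF-p300 medians were 1.435 in ventricle and 1.064 in atrium, and the aMTF+p300 medians 0.147 and 0.296. In single ventricular libraries, the vMTF+p300 median was 0.71 in replicate 1 and 0.83 to 0.92 in replicates 2 to 5. In atrial libraries it was 0.60 in replicate 1 and 0.68 to 0.84 in replicates 2 to 5.

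**Figure D4:**
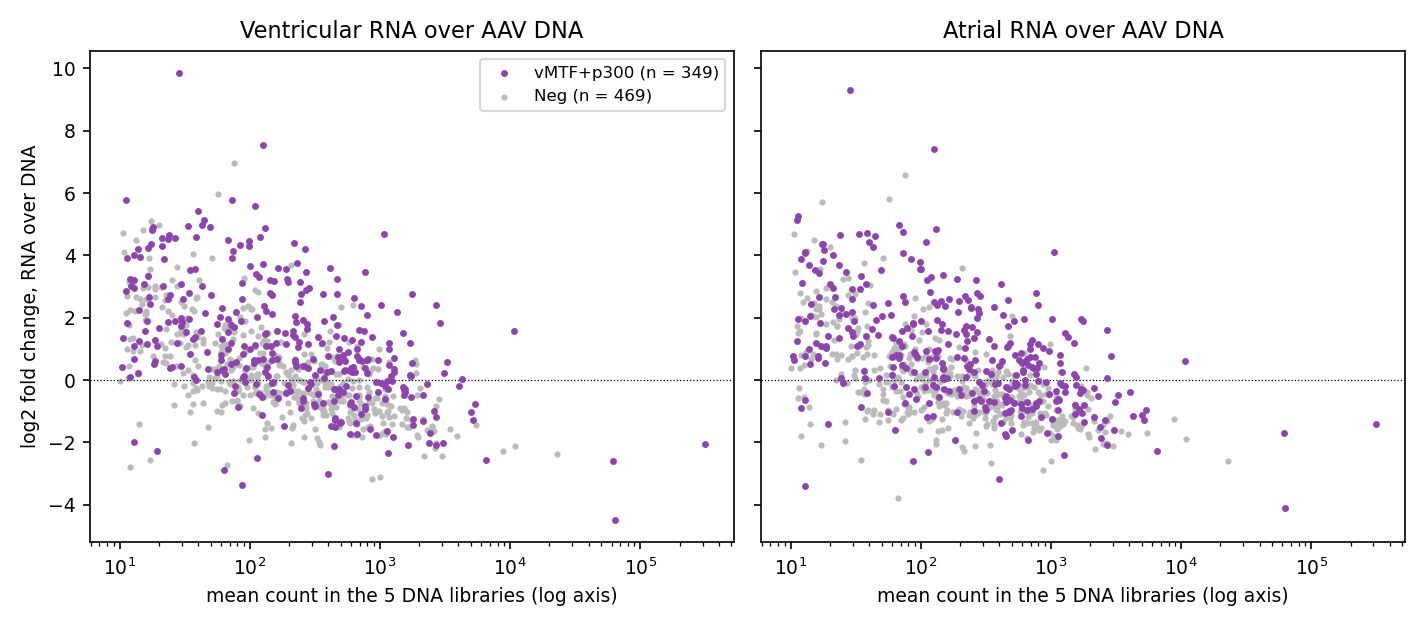
Log2 ratio of ventricular RNA (left) and atrial RNA (right) to AAV DNA on the y axis, against the mean count in the 5 DNA libraries (log axis), for the 349 tested vMTF+p300 regions and the 469 tested Neg regions. Both clouds slope down with DNA count, and the vMTF+p300 regions reach 9.85 in ventricle and 9.30 in atrium at the Rbm20 region.

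Among the named regions with high ratios, some were high in all 5 libraries of both chambers. The region chr1:33334163-33334562, with no gene within 100 kb, had 255 to 338 CPM in ventricle and 183 to 220 CPM in atrium, against 4.09 to 6.20 CPM in DNA. Its log2 ratio was 5.79 ± 0.16 in ventricle and 5.15 ± 0.19 in atrium. The region chr18:55134094-55134493, also far from genes, had 1777 to 1934 CPM in ventricle and 808 to 1064 CPM in atrium, against 26.9 to 38.1 CPM in DNA (log2 5.77 and 4.75). The Insr region reached 5.59 and 4.44. Near Vcam1, an adhesion molecule of endothelium, the ratio was 5.43 and 4.45, and inside Cacna1c it was 4.97 and 4.27. The Kcnd2 region had 3.93 ± 0.20 in ventricle and 5.26 ± 0.19 in atrium. The region chr2:57856798-57857197 had 4.496 ± 0.18 in ventricle and 4.99 ± 0.20 in atrium.

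The Rbm20 region depended on which libraries were used. Rbm20 encodes a splicing regulator of titin, and the region inside it (chr19:53801883-53802282) had 14.5, 15556, 15150, 15249 and 15433 CPM in ventricle, 7.28, 10173, 12474, 11377 and 11402 CPM in atrium, and 12.4 to 14.4 CPM in DNA. Replicate 1 was at the DNA level in both chambers, and replicates 2 to 5 were far above it. The log2 ratio to DNA was 9.85 ± 1.58 in ventricle and 9.30 ± 1.52 in atrium, and neither was called by limma voom (8.18 and 7.85). Between chambers the value was 0.42 ± 1.53 (edgeR adjusted p = 0.877). It was called higher in ventricle with the replicate number as a block (0.435, edgeR adjusted p = 0.000131) and without replicate 1 (0.407, edgeR adjusted p = 0.000169). A region 10376 bp from Gm40363, chosen after its values were seen, had the same split (chr6:47748503-47748902). It had 29.8 CPM in ventricular replicate 1 and 12451 to 14467 CPM in the others, 32.2 CPM in atrial replicate 1 and 12517 to 14632 CPM in the others, and 54.4 to 65.3 CPM in DNA. A region near Eapp did so too, with 26.9 CPM in ventricular replicate 1 and 1910 to 2474 CPM in the others (chr12:54713993-54714392). What sets replicate 1 apart was not tested.

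The lowest ratio belonged to a region far from any gene. At chr17:4626158-4626557, RNA was 936 to 2255 CPM in ventricle and 1307 to 2881 CPM in atrium, against 25865 to 34361 CPM in DNA, and the log2 ratio was -4.49 ± 0.26 in ventricle and -4.11 ± 0.21 in atrium. Its DNA libraries averaged 63227 counts. Its chamber difference of -0.49 ± 0.29 was called with the replicate block (-0.510), without replicate 1 (-0.557) and without ventricular replicate 1 (-0.767). Inside Slc44a2, a choline transporter-like protein, the region chr9:21328999-21329398 had 1.10 to 8.72 CPM in ventricle and 2.63 to 16.6 CPM in atrium, against 35.4 to 50.5 CPM in DNA (log2 -3.36 and -2.60).

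The most abundant region of the class lies inside Tex14, a gene of germ-cell bridges (chr11:87448269-87448668). It averaged 35700 ± 7406 CPM in ventricle, 59619 ± 9046 CPM in atrium (SD, n = 5 each) and 147460 CPM in DNA, where the whole class took 24.7% to 27.2% of the counts of the RNA libraries and 23.8% to 26.0% of those of the DNA libraries. Its chamber difference was -0.76 ± 0.15 and a second Tex14 region, chr11:87470970-87471369, averaged 4844 ± 1340 CPM in ventricle, against 9601 ± 1727 CPM in atrium. Both were below DNA in both chambers. A region inside Mical2, an enzyme that oxidises actin (chr7:112276742-112277141), was chosen after its values were seen. It had 17294, 15340, 14485, 14009 and 14122 CPM in ventricle, against 8350, 8056, 7617, 8543 and 8356 CPM in atrium and 4610 to 5599 CPM in DNA. The groups did not overlap, with a log2 fold change of 0.86 ± 0.06.

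The 400 bp regions that hold the promoter pieces shown above gave these values. The Tspan9 region had 522, 471, 547, 677 and 590 CPM in ventricle, against 422, 469, 448, 394 and 372 CPM in atrium and 691 to 962 CPM in DNA. RNA was below DNA in both chambers (log2 -0.53 and -1.05), and the chamber difference was 0.40 ± 0.11. The region at the E130101E03Rik promoter had 129, 138, 137, 160 and 148 CPM in ventricle, against 77.0, 60.7, 68.4, 69.3 and 124 CPM in atrium and 20.5 to 36.8 CPM in DNA. It was above DNA in both chambers (log2 2.32 and 1.38) and higher in ventricle by 0.82 ± 0.21. The Gm40649 region was about 2-fold above DNA (log2 0.98 and 0.81), with a chamber difference of 0.05 ± 0.31 that was not called. The Gm41414 region had 430, 391, 355, 320 and 342 CPM in ventricle, against 323, 345, 651, 555 and 319 CPM in atrium and 264 to 297 CPM in DNA. The chambers overlapped, with a difference of -0.28 ± 0.20 that was not called, and both were above DNA (log2 0.40 and 0.55).

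Adjacent pieces of an element often differed. There were 73 adjacent pairs, and both pieces were tested in 32. Between chambers 17 of the 32 had the same sign, 0 had both pieces called, and the median absolute difference between the pieces was 0.58 on the log2 scale. Against DNA in ventricle, 14 pairs had both pieces called the same way and 8 had them called in opposite directions, with a median absolute difference of 1.31. In atrium these were 14 and 6, with 0.93. Of all tested vMTF+p300 regions, 64.8% were above and 22.1% below DNA in ventricle, and 55.0% and 24.9% in atrium. Pairs of unrelated regions were not compared, so whether adjacent pieces differ more or less than such pairs was not tested. Pieces of an element are neighbours and do not share sequence, and the pairs were not tested as a set.

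Examples of adjacent pairs are given here, and their ratios were not adjusted for the amount of DNA of each piece. Of the pair at Arhgef37, the left piece had a log2 ratio to DNA of 4.58 in ventricle and 3.32 in atrium, and the right piece 1.11 and 0.54. On chromosome 18 the piece left of chr18:55134094-55134493 had 0.28 and -0.20, where the right one had 5.77 and 4.75. In Sorbs2, an adaptor of the Z disc and cell junctions, the left piece was above DNA in ventricle (2.79) and the right piece below it (-2.27). Next to the Pecr region described above, the right piece had 14.1 to 44.4 CPM in ventricle and 12.3 to 35.4 CPM in atrium, against 170 to 230 CPM in DNA. It was the lower of the pair against DNA, at -3.02 in ventricle and -3.18 in atrium. Near Krr1, a ribosome assembly factor, both pieces were high, at 4.01 and 4.59 in ventricle and 4.11 and 4.74 in atrium.

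The 64 regions with no DNA count had RNA all the same, in replicates 2 to 5. A count of 0 in DNA allows up to 3 counts, which is 1.17 to 1.75 CPM. In ventricular replicates 2 to 5 the median of the 64 was 58.9 to 77.1 CPM, and in atrial replicates 2 to 5 it was 41.6 to 51.0 CPM. In replicate 1 the median was 0 in both chambers, where 3 counts are 2.18 CPM in ventricle and 3.12 CPM in atrium. Of the 64, 59 had counts in each of ventricular replicates 2 to 5 and 56 in each of atrial replicates 2 to 5, against 9 with a count in ventricular replicate 1 and 7 in atrial replicate 1. Among them was a second region inside Camk2d (chr3:126723552-126723951), with 0, 48.8, 60.2, 51.4 and 77.4 CPM in ventricle, against 0, 16.1, 28.9, 32.8 and 28.1 CPM in atrium. No ratio to DNA is given for such regions.

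Some regions on the gene lists with a few DNA counts showed the same split. The region inside Scn10a, a sodium channel gene, had 2.91, 2615, 2327, 2434 and 2325 CPM in ventricle, against 18.7, 3427, 4281, 4219 and 3485 CPM in atrium, with 1.91 to 4.65 CPM in DNA (chr9:119632173-119632572). The region 10025 bp from Ankrd1, a stress-responsive cofactor of cardiac transcription, had 1.45, 449, 459, 370 and 432 CPM in ventricle, against 1.04, 481, 846, 846 and 487 CPM in atrium, with at most 0.389 CPM in DNA (chr19:36129670-36130069). In both, replicate 1 was the low value in each chamber and replicates 2 to 5 were higher in atrium without overlap. Neither region passed the DNA filter, so neither was in the main fit. In the fit of all libraries with no filter on DNA, neither was called between chambers. Not every region with few DNA counts had this split. A region inside Hdac9 (chr12:34517163-34517562), also on a list, had 35.2 ± 11.9 CPM in atrium (SD, n = 5). The Shroom3 region described below had 133 ± 15.6 CPM in ventricle (SD, n = 5). These spreads are too small for a replicate 1 near the floor.

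With no filter on DNA, 7 of the 160 low-DNA regions were higher in ventricle and 1 higher in atrium. The background over all 3812 regions of that fit was 8.34% and 10.5%. It includes the regions that pass the DNA filter, so it is not a background of low-DNA regions, for which no share is given. The largest were chr8:78025042-78025441, far from genes (log2 fold change 1.43 ± 0.19), a region inside Ccdc73 (1.23 ± 0.32) and a region inside Shroom3, an actin-binding regulator of cell shape (1.14 ± 0.15). Shroom3 averaged 133 ± 15.6 CPM in ventricle, against 57.1 ± 7.89 CPM in atrium (SD, n = 5 each). The region higher in atrium, chr15:71086506-71086905, averaged 0.514 CPM in ventricle and 3.72 ± 2.67 CPM in atrium (SD), with a mean of 0.8 DNA counts. These values are near the floor, as 3 counts are 0.829 to 2.18 CPM in ventricular libraries and 1.32 to 3.12 CPM in atrial ones.

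**Figure D5:**
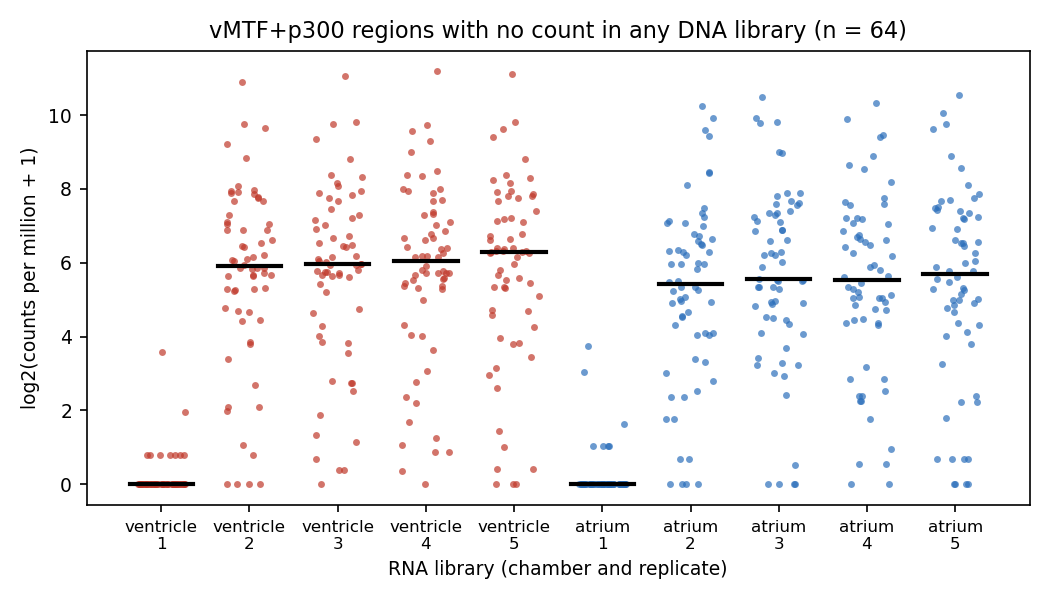
Log2 of (CPM + 1) in each RNA library (x axis, by chamber and replicate) for the 64 vMTF+p300 regions with no count in any DNA library (points), with bars at the median. Replicate 1 of both chambers has a median of 0, and replicates 2 to 5 have medians of 58.9 to 77.1 CPM in ventricle and 41.6 to 51.0 CPM in atrium.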

How the data were processed

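Reporter RNA and AAV DNA were measured in 15 libraries (5 each from ventricle, atrium and the AAV pool), grouped by the labels. The authors deposited raw counts for every region, as whole numbers with no scaling. Per the labels' protocols, Trizol was used for RNA, proteinase K freed the DNA from the virus, and the copying primer added a molecular identifier. The sources used here do not give whether reads were collapsed by identifier, so the limits that a count of 0 allows (3 counts) take in counting error alone. Bowtie2 2.3.4.3, cutadapt 2.5 and mm10 are named in the submitters' processing notes.

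Each comparison was fitted over the 2601 regions whose DNA libraries averaged 10 counts or more, on the 5 and 5 libraries compared, with edgeR 4.0.16 (R 4.3.3, quasi-likelihood, robust, TMM). Library sizes were totals of the tested regions. The Benjamini-Hochberg adjustment covered all 2601 regions, with calls at 0.05. The SE was the log2 fold change divided by the square root of F. CPM were scaled over all 15 libraries. Each region took the name of the closest protein-coding gene up to 100 kb from its midpoint (RefSeq, GRCm38). The regions named were the 12 highest and 8 lowest between chambers and the 8 highest and 4 lowest against DNA, among those called and with libraries that do not overlap, and up to 4 per gene list by p. Some named regions are not reported here. The members and lists were chosen with earlier results of these data known. Alternatives were DESeq2 1.42.0, limma voom (limma 3.58.1), other scalings and DNA filters, a replicate block and leaving libraries out. The fit was tested on simulated data. Same-numbered ventricular and atrial libraries deviated together (r = 0.819 for number 1, 0.225 to 0.241 for the others), above the criterion of 0.1 set for pairing. The deviations were from group means that include replicate 1, and libraries of different numbers were not compared. These values therefore cannot show whether libraries are paired by number, and the main fit used no pairing. RNA and DNA libraries of a number did not deviate together (-0.032 to 0.061).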

Additional observations from a re-analysis of the deposited data

Results flagged for a closer look

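Of 150 groups of 5 libraries tested with Dixon's criterion over the named regions, 13 held a library far from the others, and chance gives about 1 in 20. Ventricular replicate 1 stood apart in 5. It had 14.5 CPM at the Rbm20 region (others 15200 to 15600), 61.8 CPM at chr13:52077687-52078086 (others 93.4 to 102), 98.9 CPM near Akap13 (others 183 to 207), 1420 CPM in Actn2 (others 1200 to 1240) and 2250 CPM at chr17:4626158-4626557 (others 936 to 1210). Atrial replicate 1 stood apart in 2, with 7.28 CPM at the Rbm20 region (others 10200 to 12500) and 808 CPM at chr18:55134094-55134493 (others 1010 to 1060).

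Other atrial libraries gave 3 such values. Replicate 4 had 159 CPM at chr13:72371062-72371461 (others 110 to 122), replicate 5 had 1370 CPM at the Idh2 region chr7:80130434-80130833 (others 811 to 953), and replicate 2 had 7.73 CPM near Tln2 (others 2.44 to 3.8). In DNA, replicate 3 had 230 CPM at the Pecr region chr1:72255016-72255415 (others 170 to 183) and 33.3 CPM near Cdkn2aipnl (others 27.9 to 29.1), and replicate 1 had 5.06 CPM at the Lrrc74a region (others 6.2 to 6.51).

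Outside the tested regions, 59 of the 64 regions with no DNA count had RNA counts in each of ventricular replicates 2 to 5.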

How the results depend on the processing

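Of 2628 values of the 50 named regions under the alternatives, 2560 kept their side of the threshold. Another 43 lost a call, 22 gained one and 3 that were called in the main fit changed sign. Those 3 were all ventricle over DNA. Near Fhl2 it was 0.111 with library totals and 0.124 with the DNA minimum at 100 counts (-0.27 at 10 counts with TMM). Near Idh2 it was -0.018 with no DNA filter (0.22 with it). The 2560 include values not called in either fit, whose sign could change. The right Pecr piece (chr1:72255016-72255415) did so between chambers, at 0.066 with all libraries and -0.064 without replicate 1. Between chambers, scaling on Neg called 67 regions higher in ventricle and 48 higher in atrium. With library totals the median of ventricle over DNA was 1.211 (255 above, 52 below) and that of atrium over DNA 1.186 (229 above, 49 below). Scaling on Neg gave 230 above and 64 below in ventricle, and 223 above, 56 below and a median of 1.119 in atrium. With no DNA filter the medians were 1.651 in ventricle and 1.472 in atrium, with 316 above DNA in atrium. With the DNA minimum raised to 100 counts, which tests fewer regions, 150 were above and 48 below DNA in ventricle, and 127 above and 52 below in atrium. The cause of the other shifts was not tested.

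With 1 library left out, the regions higher in ventricle numbered 91 to 106 and those higher in atrium 36 to 42, with a median of 0.145 to 0.203. Against DNA, 213 to 223 were above and 72 to 84 below in ventricle (median 0.715 to 0.852), and 187 to 196 above and 73 to 92 below in atrium (median 0.644 to 0.78). Without replicate 1 of both chambers the counts were 89 and 39, with a median of 0.127. With the replicate number as a block, 106 were higher in ventricle and 44 higher in atrium, and against DNA 220 were above and 76 below in ventricle and 184 above and 85 below in atrium. The block changed the chamber call of the Rbm20 and chr17:4626158-4626557 regions among those named. Fits with no DNA filter and without replicate 1 (102 and 55) and with replicate 1 as a term (110 and 43) were chosen after seeing the data. Depth limits the regions with few DNA counts, down to a mean of 10.4 DNA counts.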
